A study of Mus musculus with 8 samples.

Results

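The genes described here encode the collagens, the laminins and 3 further basement membrane proteins (the nidogens Nid1 and Nid2 and the proteoglycan perlecan, Hspg2), measured in embryonic mouse small intestine, taken at stage E18.5. They were chosen by gene name on the array: Col, a number, a and a number; Lama, Lamb or Lamc and a number; Nid1, Nid2 and Hspg2. This gave 82 probes of 55 genes, and the probe with the highest mean signal stood for each gene. Out of 36161 genes on the array, the 55 comprise 41 collagen genes, 11 laminin genes, the nidogens and perlecan, and 46 of the 55 passed the filter on dim probes. The samples were 4 wild-type small intestines (Rfx6+/+, labelled control) and 4 that lacked both copies of Rfx6 (Rfx6-/-, labelled Rfx6 KO). Rfx6 is a transcription factor of the endocrine lineage of gut and pancreas. The null allele came from a floxed Rfx6 allele recombined by CMV-Cre, a Cre that acts throughout the body, and heterozygous mice were then bred to each other, so the deletion was not limited to 1 cell type. Each sample was hybridised to its own single-colour array. The labels do not say whether each sample came from 1 embryo, so the p-values measure only the spread between these samples.

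Collagens are trimers wound from 3 chains, and the classes differ in what the trimers build. Types I, III and V form the fibrils of connective tissue; types XII and XIV and the other fibril-associated collagens decorate those fibrils; type VI forms beaded microfilaments; and type IV forms the sheet-like network of basement membranes. Laminins are heterotrimers of an alpha, a beta and a gamma chain that make the second network of the basement membrane. Nidogens and perlecan link the laminin and collagen networks. In the gut wall most fibrillar collagen is made by mesenchymal cells, while epithelial cells contribute laminin chains, and Lama3 and Lamb3 are chains of the laminin that anchors epithelial cells through hemidesmosomes. Type VII collagen forms the anchoring fibrils that tie this laminin to the tissue below, and type XVII collagen, Col17a1, spans the membrane at hemidesmosomes.

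The sequences before the transcription starts of Lamb3 and Col7a1 are shown because, of the 46 genes tested, these had the largest rise and the largest fall. Both are the 250 bases before a start in RefSeq, build GRCm38.p6, plus strand, at chr1:193301744-193301993 for Lamb3 and chr9:108953336-108953585 for Col7a1. Capitals mark matches to any of 7 motifs searched on both strands.
Lamb3: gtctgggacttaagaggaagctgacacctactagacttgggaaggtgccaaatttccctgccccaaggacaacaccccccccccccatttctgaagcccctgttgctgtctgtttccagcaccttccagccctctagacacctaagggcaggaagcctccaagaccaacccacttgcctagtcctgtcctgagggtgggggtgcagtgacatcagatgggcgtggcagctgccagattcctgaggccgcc
Col7a1: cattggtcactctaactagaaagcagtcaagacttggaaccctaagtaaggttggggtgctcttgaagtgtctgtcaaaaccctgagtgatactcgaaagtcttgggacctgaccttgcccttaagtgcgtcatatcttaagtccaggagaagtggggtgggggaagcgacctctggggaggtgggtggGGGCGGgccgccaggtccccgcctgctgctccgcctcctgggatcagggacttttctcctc
The share of 32851 RefSeq windows of this length that held each motif is given as background. The AP-1 motif was searched as TGANTCA and occurred in 6.75% of windows. The FOX motif was searched as TGTTTAC and occurred in 3.17%. The CDX motif was searched as TTTATNG and occurred in 9.81%. The GATA motif was searched as AGATAA and occurred in 9.99%. The GC box was searched as GGGCGG and occurred in 32.7%. The TATA box was searched as TATAAA, which can overlap the CDX letters, and occurred in 12.4%. The RFX X-box, given by name alone, occurred in 0.374%. The Lamb3 window held none of these letters, and the Col7a1 window held the GC box, starting 61 bases before the start. Of the 55 genes, 40 had an entry, with 44 windows in all. The GC box occurred in 25 of the 44 (56.8%) and the RFX X-box in 0 of the 44. Because the X-box letters are so rare (0.374% of all windows), a count of 0 in 44 windows cannot show an absence particular to these genes.

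Signals were expressed as log2 of the processed signal relative to the 75th percentile of the array, called the level below, so that a level of 0 is the signal of that percentile. The 8 arrays came from a single slide and a single scan. Slide row 1 held control array 1 and Rfx6 KO arrays 2, 3 and 4, and row 2 held the others. Slide row and genotype thus largely went together. Of 10 markers of intestinal epithelium, among them Cdx2 and Vil1, all were well above background on all arrays. Their summed level lay between 10.60 and 10.74 on the control arrays and between 10.22 and 10.48 on the Rfx6 KO arrays. This sum follows Fabp2 and Fabp1, the brightest of the list, while 4 of the 10 markers had positive differences and 6 negative. Markers of stomach epithelium separated the groups: their summed level lay between -0.09 and 2.73 on control arrays and between 8.60 and 9.49 on Rfx6 KO arrays, with 8 of 10 called higher. The Rfx6 probe itself gave -3.14 ± 0.40 (SD, n = 4) on control arrays and -2.76 ± 0.56 (SD, n = 4) on knockout arrays (limma adjusted p 0.503), so it does not check the labels.

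Of the 46 matrix genes that passed the filter, 4 differed between the groups at an adjusted p under 0.05 (limma), or 8.70%, where 4.91% of all 23273 genes tested were called. Among them Lamb3 was higher on the Rfx6 KO arrays, and Col7a1 and Col9a1 were lower. Called higher were 2.32% of all genes and called lower 2.59%; lower genes made up 52.7% of all calls, and 31.9% when arrays were centred on their median. The groups were separate in 6 of the 46 genes (13.0%), against 14.7% of all genes; 2 of the 6 were lower on the knockout arrays and 4 higher, where 9.26% and 5.41% of all genes were. An unadjusted p under 0.05 was reached by 7 of the 46 (15.2%), against 20.5% of all genes. By the last pair of measures the 46 genes were at or below the background, so the description below turns on which genes were called. The difference was positive for 43 of the 46 genes, with a median of 0.37 log2 units; over all genes 39.5% were positive and the median was -0.05. Without control array 2 the median of the 46 was 0.16 and 40 were positive, and without Rfx6 KO array 4 the median was 0.58. The 46 genes share arrays and, as described further on, a common variation between arrays of 1 genotype, so their signs are not independent of each other.

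**Figure D1:**
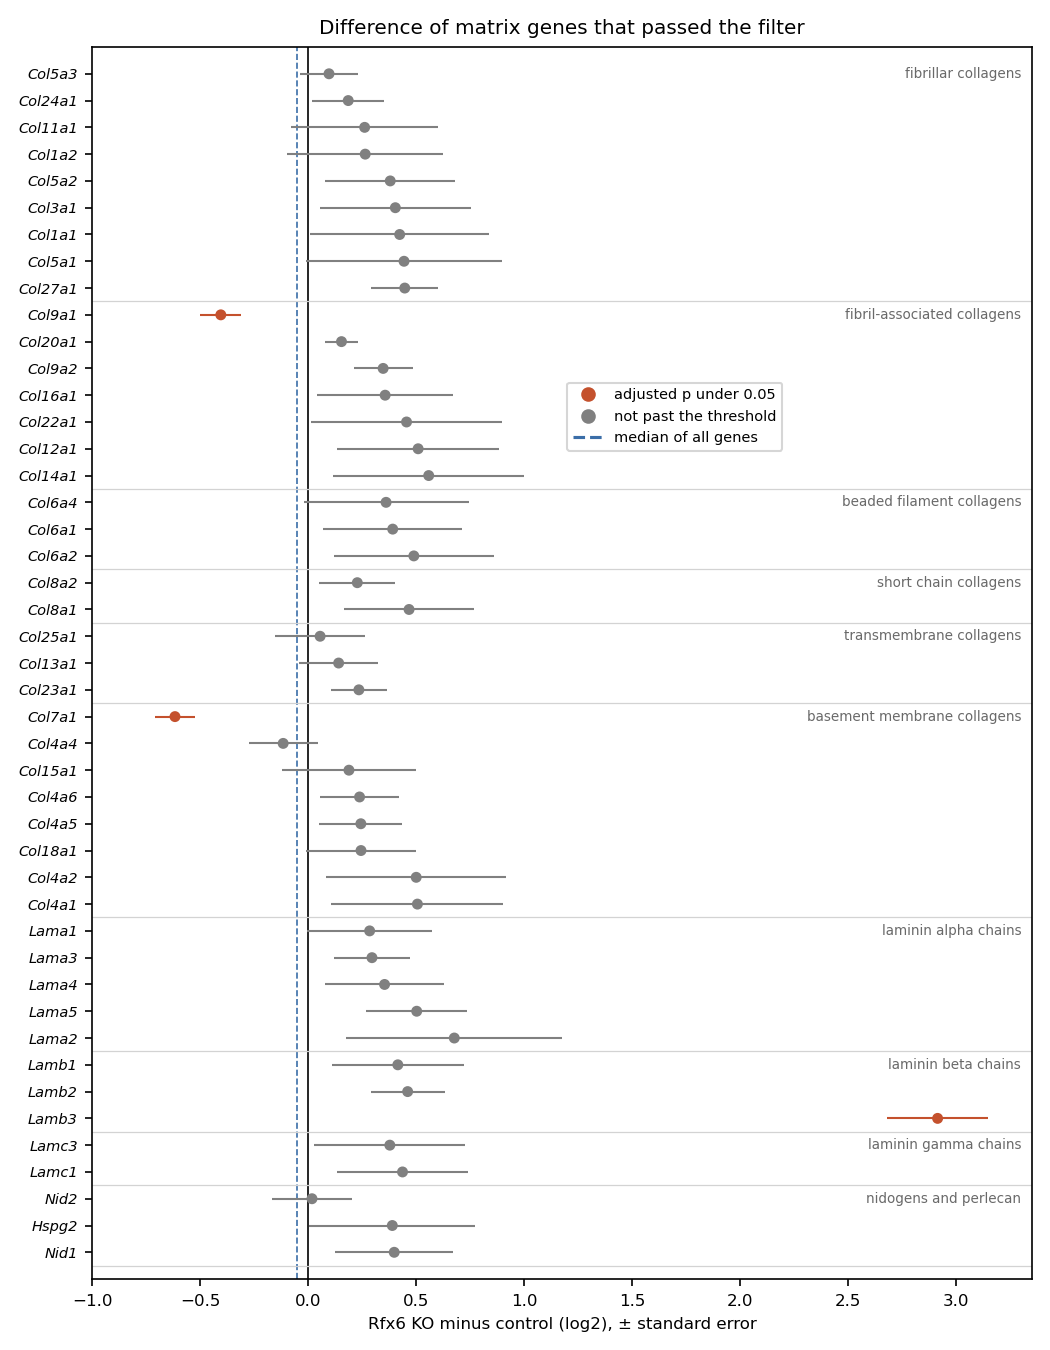
Difference between Rfx6 KO and control in log2 units (horizontal axis) for 45 of the 46 matrix genes that passed the filter, grouped by class, with bars of 1 standard error from limma and n = 4 arrays per group. Lamb3 at 2.91 stands to the right and Col7a1 at -0.62 and Col9a1 at -0.41 to the left; the 42 genes in grey were not past the threshold and most lie to the right of the median of all genes, drawn at -0.05.

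Lamb3, the beta chain of the anchoring laminin, showed the largest difference. Its probe lies at chromosome 1, 195170009 to 195170068 on mm9. The level was -2.44, -2.66, -2.71 and -2.69 on control arrays 1 to 4, and 0.84, 0.04, -0.33 and 0.60 on Rfx6 KO arrays 1 to 4. The lowest knockout array stood above the highest control array by far more than either group varied. The rise was 2.91 log2 units with a standard error of 0.23, or 7.53-fold (limma adjusted p 2.8e-04), and the gene was well above background on all 8 arrays. Control array 1 lay above the other control arrays, which were close together.

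The alpha chain of that laminin, Lama3, was measured at 0.33, -0.30, 0.45 and 0.36 on the control arrays and 0.50, 0.50, 0.77 and 0.25 on the Rfx6 KO arrays. The groups overlapped, because knockout array 4 lay within the range of the controls. Lama3 thus differed by 0.29, not past the threshold (standard error 0.18, limma adjusted p 0.392). A second Lama3 probe gave 0.19, also not past the threshold when all probes were tested. Whether the differences of Lamb3 and Lama3 were unequal was not tested. The integrin that binds this laminin is made of Itga6 and Itgb4, both chosen for description after their values were seen. Itga6 differed by 0.31 (standard error 0.17, limma adjusted p 0.356) and Itgb4 by 0.02 (standard error 0.18, limma adjusted p 0.965). The sign of the Itgb4 value changed under several alternatives, so it has no direction.

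**Figure D2:**
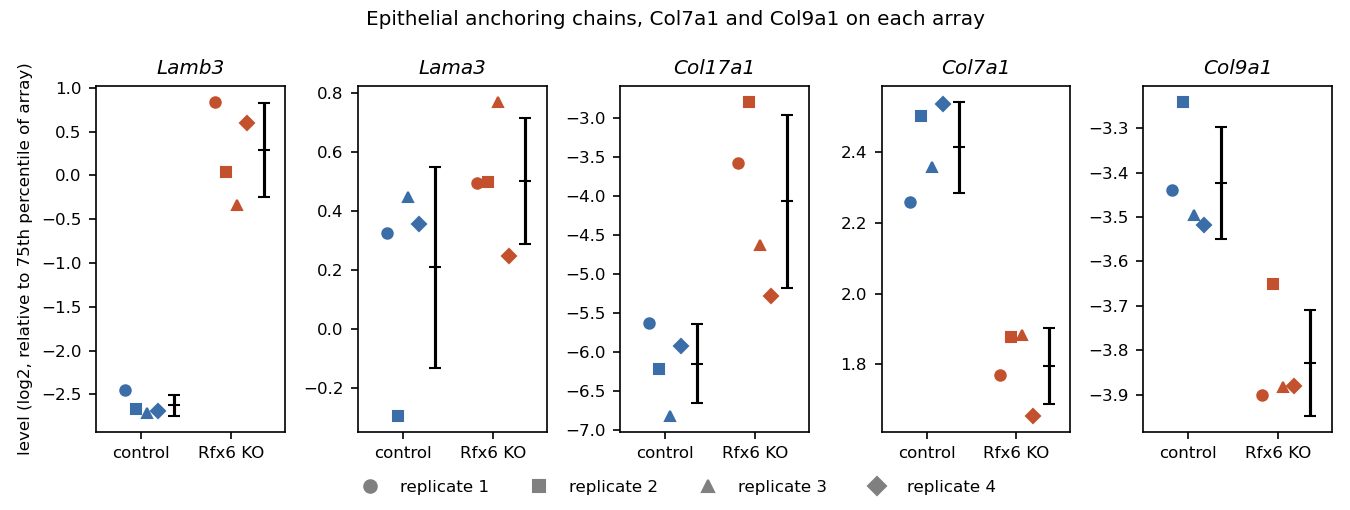
Level of 5 genes on each array (log2, relative to the 75th percentile of the array; each panel has its own vertical axis), with 4 control arrays in blue and 4 Rfx6 KO arrays in red, marker shape giving the replicate number; the bars are the mean and SD of each group. Lamb3 is separate and higher on the knockout arrays, Lama3 overlaps, Col17a1 spreads over the knockout arrays from -5.29 to -2.80, and Col7a1 and Col9a1 are separate and lower.

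Col17a1, the hemidesmosomal collagen, did not pass the filter: it was well above background on 0 of 4 control arrays and on 3 of 4 Rfx6 KO arrays. The level on the knockout arrays was -3.58, -2.80, -4.63 and -5.29, while the control arrays lay between -6.82 and -5.64, below detection, where values have no order. With no filter on dim probes it was tested and did not pass (difference 2.08, standard error 0.54, limma adjusted p 0.148). Without Rfx6 KO array 4, the knockout array on which it was not detected, it passed the filter through the knockout group alone and was called, against control values that were all below detection; this call is no support for a difference. Its spread within the knockout group followed another order than that of Lamb3, with array 2 highest.

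Markers of other epithelia were examined beside these values. In the stomach list 10 of 10 genes passed the filter and had positive differences, and for Gkn2, Gif and Atp4a no control array rose well above background. The summed stomach level on the knockout arrays was 9.44, 8.90, 8.60 and 9.49, so arrays 1 and 4 were higher than arrays 2 and 3, as for Lamb3. In the list for squamous epithelium, which lines the forestomach and oesophagus, 7 of 8 genes passed the filter and 2 were called higher, the keratins Krt15 (3.66, standard error 0.69, limma adjusted p 0.0207) and Krt13 (0.81, standard error 0.19, limma adjusted p 0.0439). Krt13 lost the call under 12 of 19 alternatives and Krt15 under 5, and the Krt13 difference was 3.89 with the mean of the gene's probes, so its size depended on the probe. Positive differences were seen in 5 of the 7 genes. The largest was that of Krt4 (3.96, standard error 1.02, limma adjusted p 0.0638), well above background on 0 control arrays and 4 knockout arrays. The basal cell genes Trp63 (-0.14, limma adjusted p 0.296) and Krt14 (-0.29, limma adjusted p 0.815) had negative differences. For Trp63 each knockout array lay below each control array. The Krt14 value rests on control array 3, at 1.19. Its other control arrays lay between -1.73 and -1.52, and the knockout arrays between -1.61 and -0.97. The summed squamous level was 4.40, 4.78, 3.70 and 3.67 on the knockout arrays and between 3.41 and 3.75 on the control arrays. Krt5, a keratin of basal cells chosen after its values were seen, stood at 1.14, 2.12, -0.76 and -1.92 on the knockout arrays and between -2.92 and -2.62 on control arrays, the order of the knockout arrays for Col17a1 too. Dsg3 was detected on 0 of 8 arrays. The part of stomach or squamous cells in the Lamb3 and Col17a1 values was not tested. In whole tissue, fewer or more cells of a type and less or more RNA per cell cannot be told apart.

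**Figure D3:**
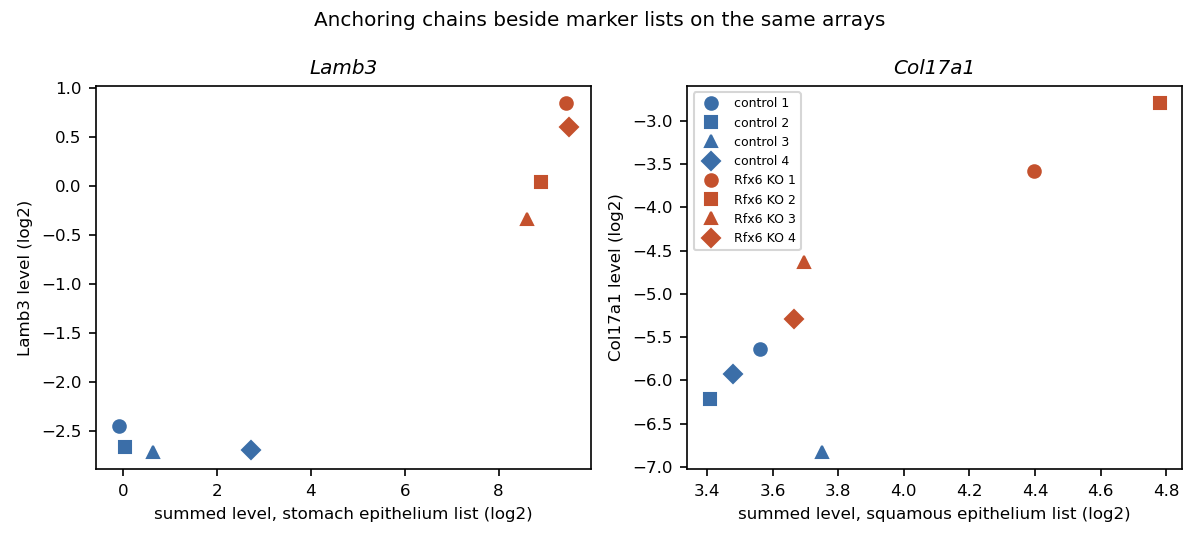
Level of Lamb3 and Col17a1 (vertical axes, log2) against the summed level of the stomach or squamous marker list on the same array (horizontal axes, log2), 1 point per array with 4 control arrays in blue and 4 Rfx6 KO arrays in red. The knockout arrays lie between 8.60 and 9.49 on the stomach axis, above the controls, while on the squamous axis only knockout arrays 1 and 2 lie clear of the controls.

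Col7a1, the chain of the anchoring fibrils, fell. Its probe lies at chromosome 9, 108886861 to 108886920 on mm9. The level was 2.26, 2.50, 2.36 and 2.53 on control arrays and 1.77, 1.88, 1.88 and 1.65 on Rfx6 KO arrays. The groups did not overlap, and each group varied little (SD 0.13 and 0.11, n = 4). The fall was -0.62 log2 units (standard error 0.09, limma adjusted p 0.0075), and the call was lost with the replicate number as a block (limma adjusted p 0.0639). Type VII is built from this chain alone, so no partner chain could be compared. Among the markers of intestinal epithelium, Fabp1 differed by -0.65 (limma adjusted p 0.0079) and Fabp2 by -0.42 (limma adjusted p 0.0483); Fabp2 lost the call under 12 of 19 alternatives and Fabp1 under 1. The other 8 markers of that list were not called. Of the 10, 4 had positive differences, among them Krt18 (0.45, limma adjusted p 0.0659) and Krt8 (0.35, limma adjusted p 0.199), each with separate groups. Those of Krt8 all but touched, with a highest control value of 6.994 and a lowest knockout value of 6.999. Vil1 differed by -0.11 and Epcam by -0.01. The part of enterocyte content in the Col7a1 value was not tested.

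The laminin chains named next did not pass the threshold. All 11 laminin genes passed the filter and had positive differences, with a median of 0.44. Lama5, the broad epithelial alpha chain, differed by 0.50 (standard error 0.23, limma adjusted p 0.27), and its level ran from 2.17 to 3.24 on control and from 2.98 to 3.61 on knockout arrays. Lamb2 differed by 0.46 (standard error 0.17, limma adjusted p 0.175). The chains common to most laminins, Lamb1 and Lamc1, differed by 0.41 and 0.44 with standard errors of 0.31 and 0.30, and both groups overlapped widely. Lama2, the alpha chain of muscle and mesenchyme, had the largest difference among genes not called, 0.68, but also a large standard error of 0.50. It stood at -1.42, -1.47, -0.07 and 0.13 on control arrays and at 0.41, 0.42, 0.35 and -1.31 on knockout arrays. Each group held low and high values, and the SD was 0.85 in each (n = 4), larger than the difference.

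The collagens of the basement membrane were measured through 9 genes, of which 8 passed the filter and only Col7a1 was called. Col4a1 and Col4a2, whose products form the ubiquitous type IV trimer, lie head to head. In the RefSeq promoter table (GRCm38.p6) their starts are on opposite strands of chromosome 8 and 21 bases apart, such that the first bases of both transcripts overlap. Col4a1 stood at 3.17, 2.30, 3.79 and 3.85 on control arrays and 4.06, 4.25, 3.96 and 2.86 on Rfx6 KO arrays. Col4a2 stood at 2.36, 1.48, 3.10 and 3.15 on control arrays and 3.32, 3.48, 3.17 and 2.12 on Rfx6 KO arrays. The arrays stood in the same order for both genes within the controls and within the knockouts. Lamb1, Col6a1 and Nid1, on other chromosomes, had that order too, so it was not particular to this pair. The differences were 0.50 for Col4a1 and for Col4a2, with standard errors of 0.40 and 0.42, within the spread between replicates (limma adjusted p 0.516 and 0.54). That of Col4a1 was 0.18 without control array 2 and 0.81 without Rfx6 KO array 4. The second pair, Col4a5 and Col4a6 on chromosome X, have starts 1343 bases apart and differed by 0.24 each (standard errors 0.19 and 0.18). A dimmer Col4a6 probe gave -0.09, so its direction depended on the probe. Of the third pair, Col4a4 passed the filter at -0.12 and Col4a3 was detected on 0 of 8 arrays. Nidogen 1 and perlecan differed by 0.40 and 0.39, neither past the threshold. Nid2 differed by 0.02 (standard error 0.18), a value whose sign changed under 5 alternatives.

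Among the fibrillar collagens 9 of 11 genes passed the filter and 0 were called by limma, with 1 at an unadjusted p under 0.05. All 9 differences were positive, from 0.10 to 0.45. Col1a1, a chain of type I collagen chosen for description after its values were seen, stood at 4.73, 4.24, 5.72 and 5.86 on control arrays and 5.80, 6.06, 5.71 and 4.67 on Rfx6 KO arrays. Control arrays 1 and 2 and knockout array 4 were low, and the remaining arrays of both genotypes lay close together. It differed by 0.42 (standard error 0.41, limma adjusted p 0.602). Col1a2 differed by 0.26 and Col3a1 by 0.40, with standard errors of 0.36 and 0.35. Without control array 2 the differences of Col1a1, Col1a2 and Col3a1 were 0.12, 0.01 and 0.20, and without Rfx6 KO array 4 they were 0.72, 0.56 and 0.68. Col27a1, a fibrillar collagen known from cartilage, did not share that order: it stood at -1.21, -0.61, -0.67 and -0.49 on control arrays and between -0.39 and -0.11 on knockout arrays. Its groups did not overlap, and its difference of 0.45 did not pass after adjustment (standard error 0.16, limma adjusted p 0.148).

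Of 9 fibril-associated collagens 7 passed the filter. Col9a1, a chain of the type IX collagen of cartilage, was called lower. Its probe lies at chromosome 1, 24201545 to 24201604 on mm9. The level was -3.44, -3.24, -3.50 and -3.52 on control arrays and -3.90, -3.65, -3.88 and -3.88 on Rfx6 KO arrays, close to the dim end of the scale. The fall was -0.41 log2 units (standard error 0.10, limma adjusted p 0.0467). The call did not hold under 16 of 19 alternatives, including each of the 8 that left out 1 array, where the adjusted p ran from 0.0504 to 0.155. Its partner chain Col9a2 differed the other way, by 0.35 (standard error 0.14, limma adjusted p 0.196). The Col9a2 groups did not overlap but all but touched, with a highest control value of -0.140 and a lowest knockout value of -0.136. Col9a3 was detected on 0 of 8 arrays. The other fibril-associated genes tested were not called: Col14a1 differed by 0.56, Col12a1 by 0.51 and Col22a1 by 0.45, with standard errors between 0.37 and 0.44. Of the beaded filament collagens 3 of 4 genes passed the filter and 0 were called by limma, with 0 at an unadjusted p under 0.05; Col6a1 differed by 0.39 and Col6a2 by 0.49. Col8a1, a short chain collagen of vessel walls, differed by 0.47 (standard error 0.30).

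The 9 genes that did not pass the filter were all collagens. Col2a1, Col9a3, Col10a1, Col4a3 and Col28a1 were well above background on 0 of 8 arrays, and Col6a6 on 1. Col11a2 was above on 5 arrays and Col19a1 on 3, and the ninth was Col17a1. Col2a1 and Col10a1 are collagens of cartilage, and 4 of 7 cartilage markers passed the filter, with 0 called by limma. At an unadjusted p under 0.05 were 2 of them, in opposite directions, Sox9 (0.54) and Hapln1 (-0.33).

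The arrays of 1 genotype differed from each other in most of these genes together. The SD within groups had a median of 0.47 log2 units over the 46 genes and of 0.17 over all genes, and 43 of the 46 lay above the latter. The difference between genotypes was smaller than this SD for 35 of the 46 genes (76.1%), against 58.1% of all genes. Control array 2 was the lowest control for 37 of the 46 genes (80.4%), where this held for 36.5% of all genes, and Rfx6 KO array 4 was the lowest knockout for 39 (84.8%), against 26.5%. Control array 4 was the highest control for 31 and Rfx6 KO array 2 the highest knockout for 35. The median gene lay 0.60 below its group mean on both control array 2 and Rfx6 KO array 4, and 0.43 above it on control array 4, while the median of all genes lay within 0.04 of its group mean on every array. In 35 genes, or 76.1%, control arrays 1 and 2 lay below control arrays 3 and 4 and knockout array 4 lay below the other knockouts; this held for 13.6% of all genes.

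**Figure D4:**
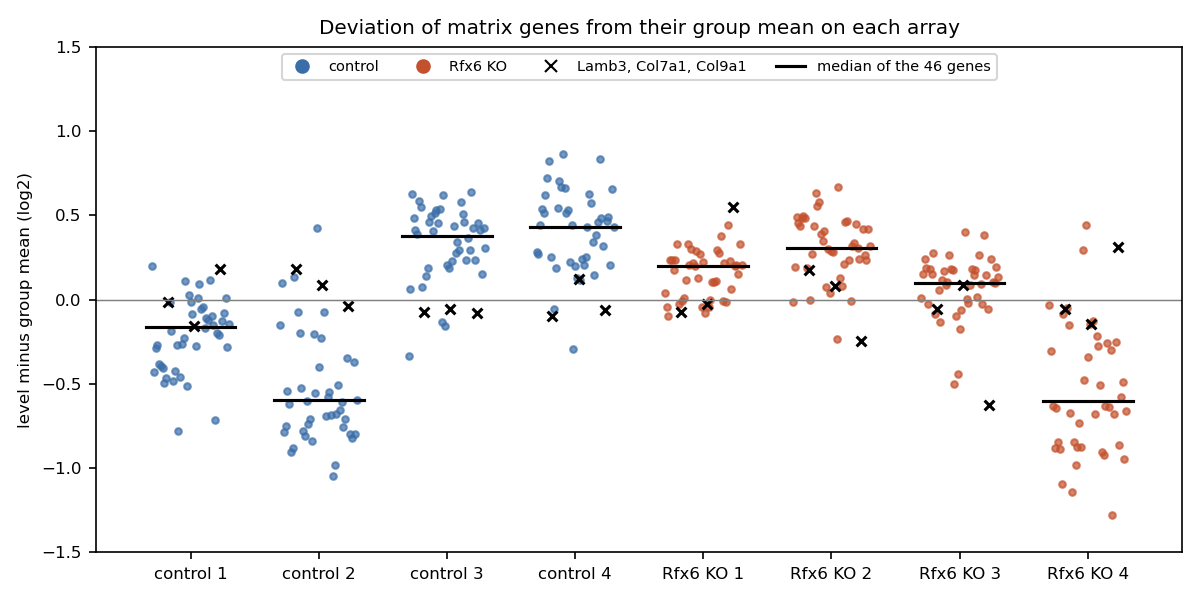
Deviation of 45 of the 46 matrix genes from the mean of its group (vertical axis, log2) on each of the 8 arrays, 1 point per gene, with the median of the 46 as a bar and Lamb3, Col7a1 and Col9a1 as crosses. The medians lie at -0.60 on control array 2 and on Rfx6 KO array 4 and above 0 on control arrays 3 and 4 and Rfx6 KO arrays 1 to 3, while the 3 crosses lie above the median on both of those low arrays.

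Likeness to Col1a1 was measured as Pearson's r of these deviations over the 8 arrays, which share the 2 group means and are given as a description only. Of the other 45 genes, 29 had an r above 0.9 (64.4%), against 4.85% of genes outside the set, and the median was 0.96. Col6a1 was the closest at 1.00, followed by Lamb1, Col1a2, Col6a4 and Col5a1, each at 0.99. Of the genes called between genotypes, these were not among the close ones: Col7a1 at 0.42, Lamb3 at -0.30 and Col9a1 at -0.31. Col25a1, a transmembrane collagen of neurons, stood at -0.81. Outside the set the closest was an unnamed locus, followed by Fn1, the gene of fibronectin, Myo3b, Klf2 and Fbn2, all at 1.00, so genes outside the matrix were as close. The low arrays did not share a slide row: control array 1 and Rfx6 KO array 4 were in row 1 and control array 2 in row 2. The median of 5′ minus 3′ signal over 1515 transcripts with probes at least 1000 bases apart lay between -1.33 and -1.21 on all arrays, at -1.25 on control array 2 and -1.21 on Rfx6 KO array 4, the latter the least negative. The share of probes well above background was 57.7% on control array 2 and 67.1% on Rfx6 KO array 4, the highest. Their part in the shared variation was not tested.

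Many markers of mesenchymal and vascular cells followed the same arrays, low on control arrays 1 and 2 and on Rfx6 KO array 4. This pattern, defined on the matrix genes after their values were seen and held by 13.6% of all genes, occurred in 6 of 10 fibroblast and mesenchyme markers, 7 of 8 endothelial markers and 5 of 9 smooth muscle markers. Pdgfrb, a receptor of pericytes and fibroblasts, stood at 0.09, 0.33, 0.74 and 0.82 on control arrays and at 0.91, 1.09, 0.97 and 0.01 on Rfx6 KO arrays. Cdh5, the cadherin of endothelial junctions, stood at 0.07, -0.49, 0.94 and 1.00 on control arrays and at 1.13, 1.46, 1.14 and -0.16 on Rfx6 KO arrays. These 2 markers, the bulk of their lists and the matrix genes thus shared their low arrays, while Vim and Kdr, the brightest probes of their lists, varied little. Other fibroblast and mesenchyme markers varied but did not hold the pattern. Prrx1 was higher on control arrays 1 and 2 (0.15 and 0.30) than on control arrays 3 and 4 (-0.61 and -0.15). Twist1 and Twist2 did not have their lowest knockout value on array 4. The median SD within groups was 0.35 in the fibroblast list, 0.36 in the endothelial list and 0.19 in the smooth muscle list. The pattern occurred in 0 of 10 markers of intestinal epithelium, and its reverse in 4 of 6 mesothelial markers, Bnc1, Lrrn4, Upk3b and Wt1.

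The summed levels follow the brightest probes of each list. In the fibroblast, smooth muscle and endothelial lists they moved less than most single markers. The summed level of all 55 matrix genes ran from 7.35 to 8.60 on control and from 7.68 to 8.82 on knockout arrays. That of fibroblast and mesenchyme markers ran from 4.96 to 5.22 and from 5.03 to 5.32, that of smooth muscle from 8.21 to 8.52 and from 8.41 to 8.72, and that of endothelium from 3.94 to 4.33 and from 4.09 to 4.40. For the fibroblast, smooth muscle and endothelial lists all genes passed the filter (10, 9 and 8) and 0 were called by limma in each, with 1, 1 and 0 at an unadjusted p under 0.05. Mesothelium ran from 5.30 to 5.89 on control and from 5.94 to 6.38 on knockout arrays, with 6 of 6 genes past the filter and 0 called by limma, 3 of them at an unadjusted p under 0.05. The mesothelial sum follows Krt19 (0.47), a keratin that epithelium also makes. Positive differences were found in 3 genes, Krt19, Msln (0.46, limma adjusted p 0.0936) and Lrrn4 (0.08). The Msln groups did not overlap but all but touched, with a highest control value of 2.516 and a lowest knockout value of 2.528. The other 3 genes had negative differences, Upk3b (-0.70), Bnc1 (-0.38) and Wt1 (-0.18), and the median was -0.05. The liver list ran from 7.42 to 8.11 and from 8.16 to 8.43, with Fgb (1.20, limma adjusted p 0.0032) and Ttr (0.63, limma adjusted p 0.0034) called higher. The part of these cell types in the matrix values was not tested.

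The genes that fold, process, bind and degrade collagen were counted in the same fit. Of 20 folding and modification enzymes, such as the prolyl and lysyl hydroxylases, all passed the filter and 0 were called by limma, with 3 at an unadjusted p under 0.05 and a median difference of 0.04. Of 15 processing and cross-linking enzymes, such as Lox and Bmp1, 12 passed the filter and 0 were called by limma, with 0 at an unadjusted p under 0.05. Of 14 receptors, integrins among them, all passed and 0 were called by limma, with 2 at an unadjusted p under 0.05. Of 19 interstitial partners such as fibronectin and decorin, all passed and 0 were called by limma, with 1 at an unadjusted p under 0.05; their median difference was 0.34. The protease list had 13 of 15 genes past the filter and 1 called, Mmp7, the epithelial matrilysin. Mmp7 stood at -0.23, -0.90, -0.04 and -0.33 on control arrays and at 0.71, 0.93, 0.87 and 0.56 on Rfx6 KO arrays, a rise of 1.14 (standard error 0.18, limma adjusted p 0.0086) with groups that did not overlap. The list of other basement membrane proteins had 14 of 16 genes past the filter and 1 called, Tinagl1, a secreted basement membrane glycoprotein, at 0.51 (standard error 0.12, limma adjusted p 0.0437). The Tinagl1 call was lost under 12 of 19 alternatives. The lists overlap: this last list also counts Eln and Fbn1 of the interstitial partners and Pxdn of the cross-linking enzymes.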

How the data were processed

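Per the labels' protocols, 100 ng of total RNA was amplified and labelled with cyanine 3. The deposited scanner files hold an intensity per spot, background-subtracted by Feature Extraction 10.10.1.1 per the file headers and not scaled between arrays; the grid was built on mm9. The authors' value table also holds an intensity; each column ranked probes as the spot medians did (Spearman 1.00), with column medians from 143.1 to 143.9, and its sorted values lay within 0.5 of the mean sorted spot medians, so its scale is linear.

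Of 62976 spots, 3671 control spots and 153 to 355 outlier spots an array were left out; no gene spot was saturated. The 75th percentile lay between 635.8 and 740.6 signal units, and 57.5% to 67.1% of probes were well above background. Spots of a probe were averaged as log2. The brightest probe stood for each gene name in the files, and a probe passed if well above background on all 4 arrays of a group. The number of arrays limits the precision.

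Groups were compared with limma 3.58.1 (R 4.3.3), two-sided, Benjamini-Hochberg over 23273 genes, threshold 0.05; p-values in the text are these. In simulated data on 23273 genes, 82.0% of 2-fold and 99.0% of 4-fold changes were called, and 5.24% of calls were false. The changed genes were 200 drawn from all genes, with noise independent between genes. The matrix genes varied more within groups (median SD 0.47 against 0.17) and varied together, so these shares do not apply to them. Alternatives were normexp, quantile and median scaling, other filters, probe means, the value table, a robust trended prior, array weights, slide row and replicate number as blocks, and leaving out each array. Named genes are those called, the 10 largest differences not called, partner chains and called genes of the lists. Col1a1, Col1a2, Col3a1, Col6a1, Col27a1, Lamb1, Lamc1, Nid1, Nid2, Hspg2, Col4a4, Col4a5, Col4a6, Itga6, Itgb4, the markers that were not called and the arrays' outlying genes were described after their values were seen. The values of 1 gene are not reported here. Genes and lists were chosen with earlier results of these data known.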

Additional observations from a re-analysis of the deposited data

Results flagged for a closer look

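Single arrays that lay far from the other 3 of their group were looked for in 204 groups of 4 values. In all 19 were found (9.31%), where chance gives about 1 in 20 for independent groups. The matrix genes share arrays and vary together, so the 19 are not independent, and 10 of the 19 lay on Rfx6 KO array 4. Of the 12 that are matrix genes, 9 were low on Rfx6 KO array 4. These were Col18a1 at 3.16 (others 3.77 to 3.87), Col4a5 at -0.31 (0.05 to 0.07), Col5a1 at 1.26 (2.63 to 2.84), Col6a1 at 4.35 (5.27 to 5.44) and Col6a4 at 1.52 (2.61 to 2.78). The same array was low for Hspg2 at 1.31 (2.45 to 2.67), Lama2 at -1.31 (0.35 to 0.42), Lamb1 at 3.69 (4.51 to 4.68) and Lamc3 at -2.86 (-1.80 to -1.58). The summed level of the beaded filament collagens was also low there, at 4.85 (5.81 to 5.99).

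Lama3 was low on control array 2 at -0.30 (0.33 to 0.45), as were the summed levels of the mesothelium markers at 5.30 (5.80 to 5.89) and of the folding enzymes at 7.15 (7.44 to 7.46), and Itgb4 at 2.47 (3.19 to 3.24). Among the called genes, Lamb3 was high on control array 1 at -2.44 (-2.71 to -2.66) and Col9a1 high on Rfx6 KO array 2 at -3.65 (-3.90 to -3.88). Outside the set, Rfx6 was low on control array 4 at -3.74 (-2.98 to -2.91), the summed leukocyte level low on Rfx6 KO array 1 at 6.00 (6.12 to 6.15), and Gkn2 high on control array 4 at -5.13 (-6.34 to -6.28), where it was not well above background.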

How the results depend on the processing

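Lamb3 kept its call under all 19 alternatives, with differences of 2.26 to 3.12. Col7a1 kept it under 18, with differences of -0.67 to -0.55, and lost it with the replicate block (adjusted p 0.0639). Col9a1 lost it under 16, its difference being -0.06 with the value table; the cause was not tested. The count of matrix genes called lower was 1 with normexp, quantile scaling, median centring, no filter, the value table, the robust prior or the slide row block, 0 with the replicate block, and 1 to 1 on leaving out 1 array. The median difference of the matrix genes ran from 0.16 to 0.58 on leaving out 1 array, and was 0.52 with the slide row block.

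Over all genes, 602 were lower and 540 higher. With the slide row block 426 were lower and 387 higher. Lower genes numbered 253 with median centring, 200 without the filter, 1225 with array weights and 148 with the replicate block; higher genes numbered 297 without the filter and 264 with the replicate block. Lower genes were 52.7% of the calls and 31.9% with median centring. With 1 array fewer the lower genes ranged from 216 to 586 and the higher genes from 335 to 497, in fits with fewer samples: lower genes numbered 253, 315 and 341 without control array 1, 3 or 4 and 216 and 230 without Rfx6 KO array 1 or 2, and higher genes 353, 335 and 343 without control array 1 or Rfx6 KO array 1 or 2; the cause of the other changes was not tested. Same-numbered samples had correlations of deviations from -0.41 to 0.07. With 4 arrays per group these values cannot show whether samples were paired, and the labels do not say that the numbers pair them.

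The small Nid2 difference ran up to 0.18 on leaving out 1 array; it changed sign with array weights (-0.011) and on leaving out control array 2 (-0.11) or Rfx6 KO array 1 (-0.03), 2 (-0.06) or 3 (-0.02). That of Itgb4, up to 0.088 on leaving out 1 array, did so with array weights (-0.094), the slide row block (-0.076) and without control array 2 (-0.17) or Rfx6 KO array 2 (-0.03) or 3 (-0.0046). Dim probes limit Col17a1 and Col9a1.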
